A study of Mus musculus with 9 samples.

Results

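The 9 genes described here encode the core of the Nodal signalling pathway: the ligand Nodal, the co-receptor Tdgf1 (also called Cripto), the receptor Acvr2b, the transducers Smad2, Smad3 and Foxh1, and the inhibitors Lefty1, Lefty2 and Smad7. They were chosen by symbol, and all 9 were found among the 15074 named genes of the expression table and passed the filter of at least 1 FPKM in some library, as did 13288 genes in all. FPKM scales the reads of a gene to the length of its transcript and to the size of the library, so that levels of different genes can be set side by side. The study compared 3 lines of mouse embryonic stem cells (ESCs): the wild-type line J1 (WT), Dnmt1-/- cells derived from it (1KO), and 1KO+1CI, a zeocin-resistant clone of 1KO that carries a CAG-promoter transgene for a catalytically inactive DNMT1. DNMT1 is the enzyme that copies DNA methylation onto new strands after replication. Each line was sampled at day 0, as ESCs grown with LIF on fibroblast feeders, and at days 2 and 4 of differentiation towards epiblast-like cells, which went without feeders and LIF through a day as embryoid bodies and then adherent culture. There was 1 library for each line and day, 9 in all, each of polyadenylated RNA.

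Nodal is a ligand of the TGF-beta family. With a co-receptor of the Cripto family it binds activin receptors, which phosphorylate SMAD2 and SMAD3, and these enter the nucleus with SMAD4 and act on DNA together with partners such as FOXH1. Nodal itself and both Lefty genes are among the targets, and the Lefty proteins are secreted and block Nodal, so that the pathway feeds back on itself in both directions. In the early mouse embryo it is known for its part in the epiblast, the primitive streak and the left-right axis.

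The libraries held between 20200000 and 28000000 counted reads, as recovered from the steps of low FPKM values under the assumption that 1 step is 1 read. At that depth the members rested on between 152 reads, for Smad7 in 1KO at day 2, and 18076 reads, for Tdgf1 in 1KO at day 4. Reads were estimated from FPKM, depth and the shortest annotated transcript, and the exact 95% binomial intervals given with the ratios below cover counting error only. As a check of the labels, Dnmt1 had 74.0, 80.4 and 48.5 FPKM in the WT libraries of days 0, 2 and 4. It had 13.7, 17.4 and 12.3 FPKM in those of 1KO, and 315, 129 and 158 FPKM in those of 1KO+1CI, where the transgene adds to it. The summed level of 10 fibroblast markers, which mark feeder cells, was 102 (WT), 201 (1KO) and 239 FPKM (1KO+1CI) at day 0 and lay between 14.1 and 32.1 at later days. Whether feeders were removed before the day 0 extraction is not stated in the study's methods. The feeders' part in the day 0 values of the members and of the other genes named below was not tested. In bulk RNA, fewer cells of a type and less RNA per cell cannot be told apart.

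Over the 9 libraries, Tdgf1 had the highest median level of the 9 genes, at 291 FPKM (range 175 to 414). Lefty2 followed at 123 FPKM (36.4 to 193) and Lefty1 at 89.1 FPKM (41.1 to 395). Foxh1 had a median of 43.7 FPKM (28.9 to 61.2), and Nodal one of 39.7 FPKM (31.9 to 76.0). The other members were lower, with medians of 12.7 FPKM for Smad7, 8.74 for Acvr2b, 7.33 for Smad2 and 6.40 for Smad3. Each gene's range overlapped that of its neighbour in this order, except that the lowest Nodal value lay above the highest Smad7 value of 25.9 FPKM. Lefty1 was the member that varied most, by 9.62-fold between its lowest and highest library, and Smad2 varied least, by 1.49-fold.

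**Figure D1:**
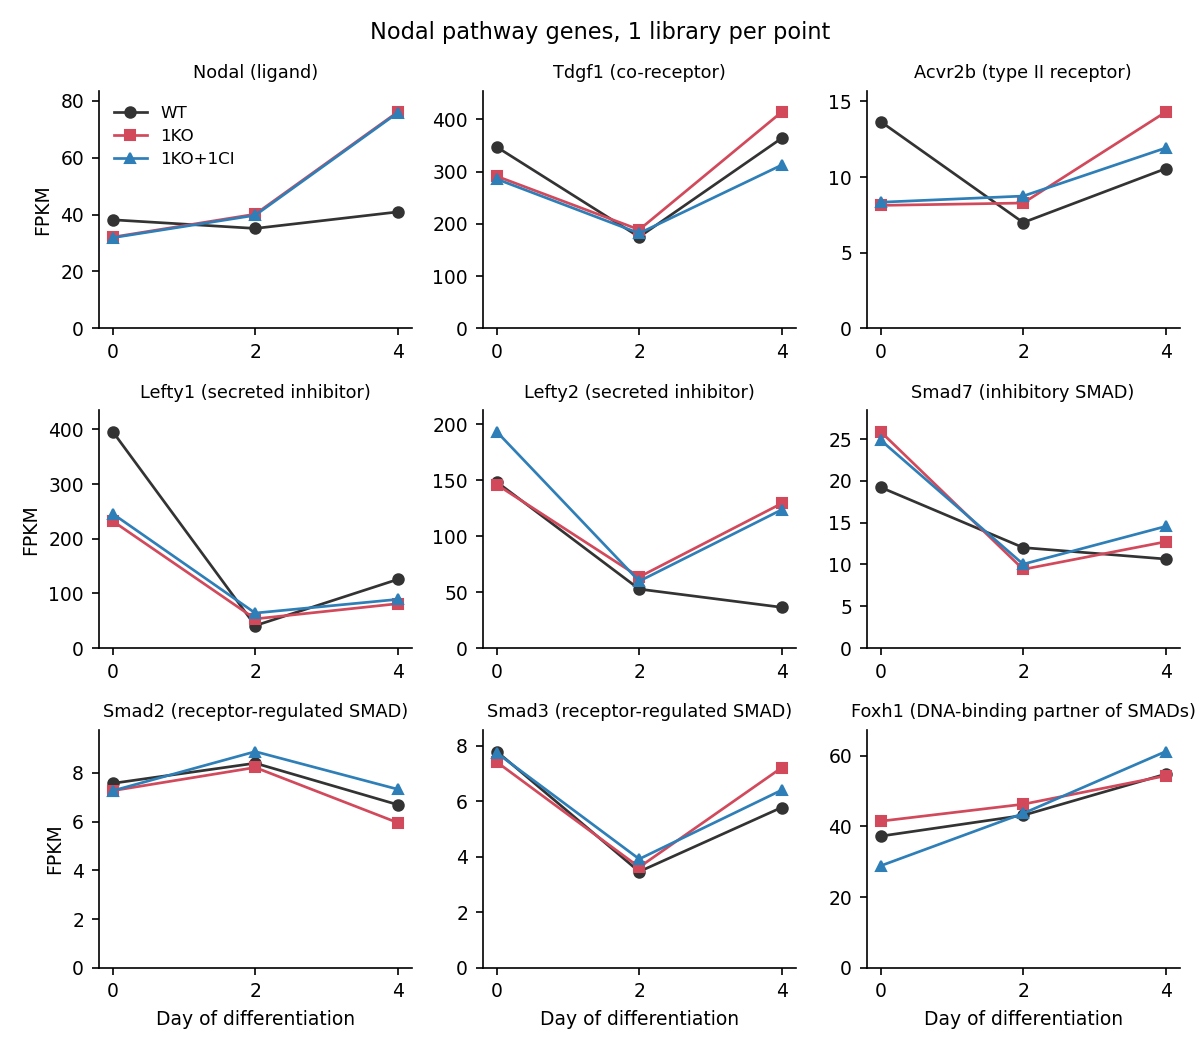
FPKM of the 9 genes (vertical axes, each from 0) at days 0, 2 and 4 (horizontal axes) in WT (circles), 1KO (squares) and 1KO+1CI (triangles), with 1 library per point and no error bars. Both mutant lines lie above WT for Nodal and Lefty2 at day 4, at 75.7 to 76.0 against 40.9 FPKM for Nodal and at 123 to 129 against 36.4 FPKM for Lefty2, and below it for Lefty1 and Acvr2b at day 0.

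Nodal, the ligand, lies on chromosome 10 (GRCm38, 61417972-61425338, plus strand). Its levels in WT were 38.1, 35.1 and 40.9 FPKM on days 0, 2 and 4. In 1KO it was 32.1, 40.1 and 76.0 FPKM on the same days, and in 1KO+1CI it was 31.9, 39.7 and 75.7 FPKM. WT was nearly level over time, while both mutant lines had their highest value at day 4. The day 4 level was 1.86 times that of WT in 1KO (95% counting interval 1.75 to 1.97) and 1.85 times in 1KO+1CI (1.75 to 1.96). The mutant lines themselves stood at a ratio of 0.997 to each other at day 4, 1KO+1CI over 1KO (0.95 to 1.05). Because RefSeq gives a promoter window for this gene, and because DNMT1 acts at CpG sites, the 250 bases before its annotated start (chr10:61417722-61417971, plus strand, GRCm38.p6) are shown 5′ to 3′ with each CpG in capitals.
Nodal: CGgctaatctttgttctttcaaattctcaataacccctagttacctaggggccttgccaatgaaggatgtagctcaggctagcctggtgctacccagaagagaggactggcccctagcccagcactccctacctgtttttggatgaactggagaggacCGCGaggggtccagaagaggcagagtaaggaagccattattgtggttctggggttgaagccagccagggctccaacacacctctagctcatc
The window holds 3 CpG sites, and 29.0% of the 32851 windows of the same length in the RefSeq table hold fewer. Neither the letters AATNNACA, a motif of FOXH1, nor the letters CAGAC, a motif of SMAD proteins, occur in it on either strand. Of all windows 10.9% hold the former and 42.2% the latter. DNA methylation of the window was not analysed here.

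Tdgf1, the co-receptor that Nodal needs to signal through activin receptors, lies on chromosome 9 (110939603-110946158, minus strand). WT had 347, 175 and 364 FPKM on days 0, 2 and 4. In 1KO the values were 291, 189 and 414 FPKM, and in 1KO+1CI they were 286, 182 and 312 FPKM. All 3 lines thus had their lowest value at day 2 and came back to 1.05 to 1.42 times the day 0 level at day 4. The lines stood close together at day 2, between 175 and 189 FPKM, and apart at day 4, where 1KO+1CI was at 0.755 times the level of 1KO (0.738 to 0.773) and WT lay between them. Its window (chr9:110946159-110946408, minus strand) is shown beside that of Nodal as that of the member with the highest median level.
Tdgf1: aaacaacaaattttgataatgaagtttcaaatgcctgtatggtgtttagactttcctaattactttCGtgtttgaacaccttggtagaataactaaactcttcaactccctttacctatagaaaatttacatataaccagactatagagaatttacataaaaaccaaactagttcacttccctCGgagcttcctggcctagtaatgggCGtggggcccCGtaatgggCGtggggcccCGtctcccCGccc
It holds 7 CpG sites, against a median of 6 over all windows, with 2 matches to AATNNACA and 1 to CAGAC on both strands together. Sequence is shared with 1 other annotated gene, the pseudogene Tdgf1-ps1, in 3.2% of the stretches of 100 bases of the Tdgf1 transcripts. How many of the study's reads, which were longer and paired, could not be assigned to either with certainty was not determined.

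Acvr2b encodes an activin type II receptor, on chromosome 9 (119402118-119434995, plus strand). On days 0, 2 and 4 WT had 13.7, 6.99 and 10.6 FPKM, 1KO had 8.13, 8.28 and 14.3, and 1KO+1CI had 8.34, 8.74 and 11.9. At day 0 WT was above both mutant lines, which were at 0.595 (0.520 to 0.682) and 0.610 (0.529 to 0.701) times its level, and at days 2 and 4 it was below them. Acvr2b, Smad2 and Smad7 have several annotated transcripts, and the table gives each gene as 1 value. The read numbers and counting intervals of these genes are therefore approximate.

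Lefty1 and Lefty2 encode the secreted inhibitors of Nodal. They lie near each other on the plus strand of chromosome 1, Lefty1 at 180935022-180938400 and Lefty2 at 180893108-180899103. Their coding sequences of 1104 bases each are identical at 91.8% of positions. Of the stretches of 100 bases in the transcripts, 5.9% of those of Lefty1 and 3.9% of those of Lefty2 occur in the other gene. The study's reads were longer than this and paired, so that a read or its mate can reach beyond such a stretch. How many reads could not be told apart was not determined. How reads with several alignments were counted is not stated either.

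For Lefty1 the WT libraries of days 0, 2 and 4 had 395, 41.1 and 126 FPKM. In 1KO the values were 232, 53.4 and 81.1 FPKM, and in 1KO+1CI they were 245, 64.1 and 89.1 FPKM. Every line was highest at day 0 and lowest at day 2. WT was above both mutant lines at day 0 and day 4 and below them at day 2. The fall to day 2 was to 0.104 times the day 0 level in WT (0.0987 to 0.110), to 0.230 times in 1KO (0.219 to 0.242) and to 0.261 times in 1KO+1CI (0.249 to 0.274).

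For Lefty2 those of WT had 148, 52.7 and 36.4 FPKM. In 1KO the values were 146, 63.5 and 129 FPKM, and in 1KO+1CI they were 193, 59.7 and 123 FPKM. All lines were lower at day 2 than at day 0, after which WT went lower still and both mutant lines returned to 0.885 (1KO) and 0.640 (1KO+1CI) times their day 0 level. At day 4 Lefty2 was 3.54 times as high in 1KO as in WT (3.37 to 3.73) and 3.39 times in 1KO+1CI (3.22 to 3.57). This was the only member whose level differed by at least 2-fold between lines on any day.

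The order of the paralogs differed between the lines at day 4. The ratio of Lefty2 to Lefty1 in WT was 0.375, 1.28 and 0.290 on days 0, 2 and 4. In 1KO the ratio was 0.629, 1.19 and 1.59, and in 1KO+1CI it was 0.787, 0.931 and 1.39. Lefty1 was the more abundant paralog in WT at day 4, and Lefty2 was in both mutant lines. Summed, the paralogs amounted at day 4 to 162 (WT), 210 (1KO) and 213 FPKM (1KO+1CI), and this sum was 14.3, 11.8 and 13.8 times the Nodal level at day 0 (WT, 1KO and 1KO+1CI) and 3.96, 2.77 and 2.81 times at day 4.

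**Figure D2:**
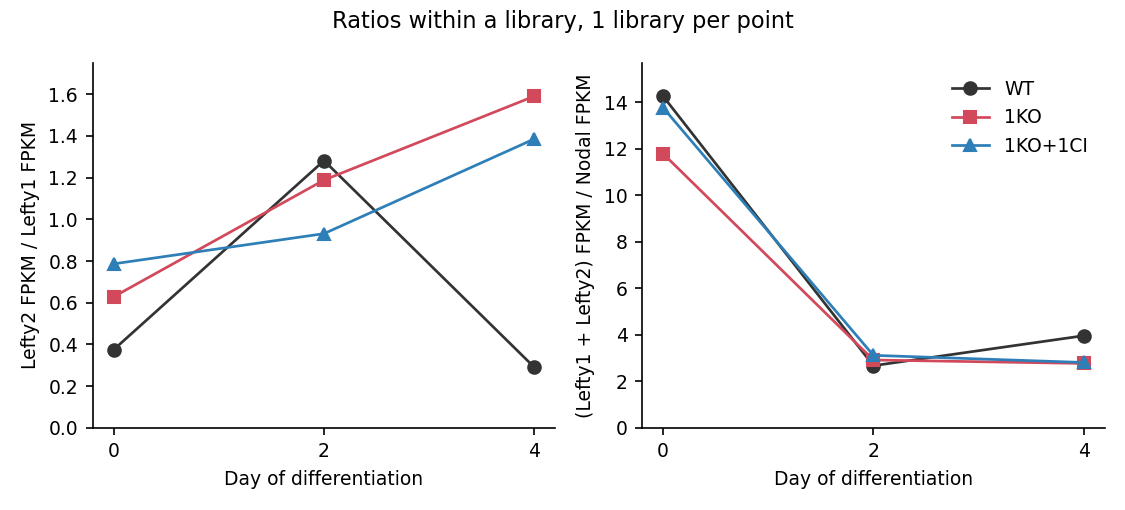
Left, Lefty2 FPKM divided by Lefty1 FPKM; right, the sum of both divided by Nodal FPKM, at days 0, 2 and 4 (horizontal axes), with 1 library per point. The ratio of the paralogs at day 4 is 0.290 in WT and 1.39 to 1.59 in the mutant lines, while the sum over Nodal lies at 2.67 to 3.96 in every library of days 2 and 4 and at 11.8 to 14.3 at day 0.

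Smad2 and Smad3 encode the SMADs that activated receptors phosphorylate. Smad3, on chromosome 9 (63646767-63757994, minus strand), had 7.79, 3.47 and 5.78 FPKM in the WT libraries of days 0, 2 and 4. The values of 1KO were 7.42, 3.63 and 7.21 FPKM, and those of 1KO+1CI were 7.74, 3.92 and 6.40 FPKM. Smad3 was lowest at day 2 in all lines, with no overlap between the values of day 2 and those of the other days. The window before Smad3 (chr9:63757995-63758244, minus strand) is shown for its contrast in CpG content with that of Nodal.
Smad3: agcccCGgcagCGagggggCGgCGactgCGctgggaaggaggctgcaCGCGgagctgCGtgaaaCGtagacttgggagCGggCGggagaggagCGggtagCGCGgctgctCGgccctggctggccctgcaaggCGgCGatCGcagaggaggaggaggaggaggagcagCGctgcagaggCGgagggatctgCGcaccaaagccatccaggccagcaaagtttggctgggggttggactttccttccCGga
It holds 22 CpG sites, with fewer in 85.2% of all windows, and neither motif. The window of Acvr2b holds 24 CpG sites, with 1 match to CAGAC and none to AATNNACA, and promoter windows of Lefty1, Lefty2, Foxh1, Smad2 and Smad7 were not analysed here.

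Smad2, on chromosome 18 (76241580-76310963, plus strand), lay between 5.96 and 8.87 FPKM in the 9 libraries, with 7.57, 8.39 and 6.69 FPKM in WT on days 0, 2 and 4. The ratio of Smad2 to Smad3 lay between 0.826 and 1.16 at days 0 and 4 and between 2.26 and 2.42 at day 2.

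Foxh1 encodes the forkhead factor that brings SMAD complexes to DNA. It lies on chromosome 15 (76668225-76669948, minus strand). On days 0, 2 and 4 WT had 37.3, 43.1 and 54.8 FPKM, 1KO had 41.5, 46.3 and 54.3, and 1KO+1CI had 28.9, 43.7 and 61.2. Each line was lowest at day 0 and highest at day 4. The lines overlapped closely at day 2, and 1KO+1CI had both the lowest value at day 0 and the highest at day 4, a ratio of 2.12 within that line (1.95 to 2.30).

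Smad7 encodes an inhibitory SMAD that acts inside the cell on the receptors. It lies on chromosome 18 (75367529-75395935, plus strand). On days 0, 2 and 4 WT had 19.2, 12.0 and 10.7 FPKM, 1KO had 25.9, 9.42 and 12.7, and 1KO+1CI had 24.9, 10.0 and 14.6. All lines were highest at day 0. At day 2, 1KO was at 0.364 times its day 0 level (0.302 to 0.437) and 1KO+1CI at 0.404 times (0.336 to 0.484), against 0.625 times in WT (0.525 to 0.747).

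Between lines on the same day, differences were taken in log2(FPKM + 1) and counted as called from 1 upwards, which is about a 2-fold change; each rests on 1 library against 1, with no test. Of the 81 differences between lines, 2 were called, both of Lefty2 at day 4, by 1.80 for 1KO and 1.73 for 1KO+1CI against WT. Over all 13288 genes 2.56% were called for 1KO against WT at day 4 and 4.58% for 1KO+1CI against WT, and the 9 members held 1 call in each. No member was called against WT at day 0, where 4.30% of all genes were called for 1KO and 5.12% for 1KO+1CI, nor at day 2, where 2.57% and 4.01% were. Both mutant lines were set against the same WT library. Between 1KO+1CI and 1KO none of 27 differences was called, with the widest at 0.51 in size, for Foxh1 at day 0, against 0.474%, 0.384% and 1.04% of all genes at days 0, 2 and 4.

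Within a line, 15 of 54 differences from day 0 were called. In WT these were Lefty1 and Lefty2, lower by 3.23 and 1.48 at day 2 (6.87% of all genes called) and by 1.65 and 2.00 at day 4 (7.16%). In 1KO, Lefty1 (-2.10), Lefty2 (-1.19) and Smad7 (-1.37) were called at day 2 (5.34% of all genes), and Nodal (1.22) and Lefty1 (-1.50) at day 4 (10.6%). In 1KO+1CI the same members were called at day 2 (5.82%), with Lefty1 at -1.92, Lefty2 at -1.68 and Smad7 at -1.23. At day 4 of that line Nodal (1.22), Lefty1 (-1.45) and Foxh1 (1.06) were called (11.8%). Days 2 and 4 share the day 0 library of their line.

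To test changes over time, the lines were used in place of replicates: limma was fitted over all genes to log2(FPKM + 1) with line and day as terms, and its p-values were adjusted by the Benjamini-Hochberg method over the 13288 genes. The 3 lines are related cultures of different genotype, so that the error is the difference between lines in their course over time. At day 2 against day 0, 5 of the 9 members fell and none rose, where 17.0% of all genes were called. Lefty1 fell by 2.42 ± 0.25 (SE, 3 lines; limma adjusted p = 0.00186) and Lefty2 by 1.45 ± 0.33 (limma adjusted p = 0.0263). Smad7 fell by 1.08 ± 0.16 (limma adjusted p = 0.00624), Smad3 by 0.89 ± 0.11 (limma adjusted p = 0.00342) and Tdgf1 by 0.75 ± 0.13 (limma adjusted p = 0.0104). All 5 were lower at day 2 than at day 0 in each of the 3 lines. The estimates for Nodal (0.17 ± 0.22), Foxh1 (0.31 ± 0.14), Smad2 (0.18 ± 0.11) and Acvr2b (-0.26 ± 0.21) did not pass. The median over the 9 members was -0.75, against 0.02 over all genes tested.

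At day 4 against day 0, 4 members were called, where 25.2% of all genes were. Nodal rose by 0.85 ± 0.22 (limma adjusted p = 0.0263) and Foxh1 by 0.66 ± 0.14 (limma adjusted p = 0.0152), while Lefty1 fell by 1.53 ± 0.25 (limma adjusted p = 0.00492) and Smad7 by 0.83 ± 0.16 (limma adjusted p = 0.01). Lefty2 was at -0.94 ± 0.33 (limma adjusted p = 0.0753), Tdgf1 at 0.23 ± 0.13, Acvr2b at 0.29 ± 0.21, Smad3 at -0.22 ± 0.11 and Smad2 at -0.13 ± 0.11. For Nodal the rise of 0.85 joins 0.10 in WT with 1.22 in both mutant lines. These calls depended on which lines were in the fit: without 1KO no member was called at day 2 or day 4, and without 1KO+1CI only Lefty1 was on either day, while 26 to 854 of all genes were called.

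Days 2 and 4 were both sampled after the step that removes feeders, and a comparison of them, added after the data had been seen, called 3 members against 24.5% of all genes. Tdgf1 rose by 0.99 ± 0.13 (limma adjusted p = 0.00381), Smad3 by 0.67 ± 0.11 (limma adjusted p = 0.00717) and Lefty1 by 0.88 ± 0.25 (limma adjusted p = 0.0374). Nodal was at 0.68 ± 0.22 (limma adjusted p = 0.0550). All 3 had fallen from day 0 to day 2. With a pseudocount of 0.1 the call of Lefty1 was lost (limma adjusted p = 0.0587), and with a prior variance that follows mean expression Nodal was called (limma adjusted p = 0.0406). Without WT, 7 members were called in this comparison, where 3666 of the 13288 genes were. Without 1KO no member was called, and neither was any other of the 13288 genes.

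To test differences between genotypes, a second limma fit gave WT a mean of its own on each day and 1KO and 1KO+1CI a joint mean. Its error comes from the difference between the mutant lines alone, the single WT library of a day is assumed to vary in the same way, and 1KO+1CI derives from 1KO. At day 0, 2 members were lower in the mutant lines, where 8.06% of all genes were called: Lefty1 by -0.73 ± 0.16 (limma adjusted p = 0.0443) and Acvr2b by -0.67 ± 0.16 (limma adjusted p = 0.0480). Both calls were lost with a pseudocount of 0.1 (limma adjusted p = 0.0817 and 0.0768), and that of Acvr2b also with median-ratio scaling. They were also made on the day on which the fibroblast markers differed: all 10 of those tested were higher in both mutant lines than in WT, and 5 of them passed. At day 2 no member passed the adjusted threshold, while 2.72% of all genes were called. An unadjusted limma p under 0.05 was reached by 1 member, Lefty1 at 0.50 ± 0.16, and by 2608 of the 13288 genes.

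At day 4, 2 members were higher in the mutant lines, where 2.54% of all genes were called. Lefty2 was higher by 1.77 ± 0.19 (limma adjusted p = 0.00822), and it passed under all 5 other settings tried, with adjusted p between 0.00214 and 0.0321. Nodal was higher by 0.87 ± 0.13 (limma adjusted p = 0.0269), and with a pseudocount of 0.1 it was at limma adjusted p = 0.0557. Lefty1 was at -0.56 ± 0.16 (limma adjusted p = 0.131), lower in both mutant lines than in WT without passing the test. The other members were at 0.33 ± 0.15 (Smad7), 0.28 ± 0.16 (Acvr2b), 0.20 ± 0.14 (Smad3), 0.07 ± 0.22 (Foxh1), -0.02 ± 0.19 (Tdgf1) and -0.02 ± 0.16 (Smad2), and none of them passed. When each library was rescaled to a common sum, the values of Tdgf1 and Smad2 turned to 0.07 and 0.06. The median over the members was 0.20, against 0.00 over all genes.

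**Figure D3:**
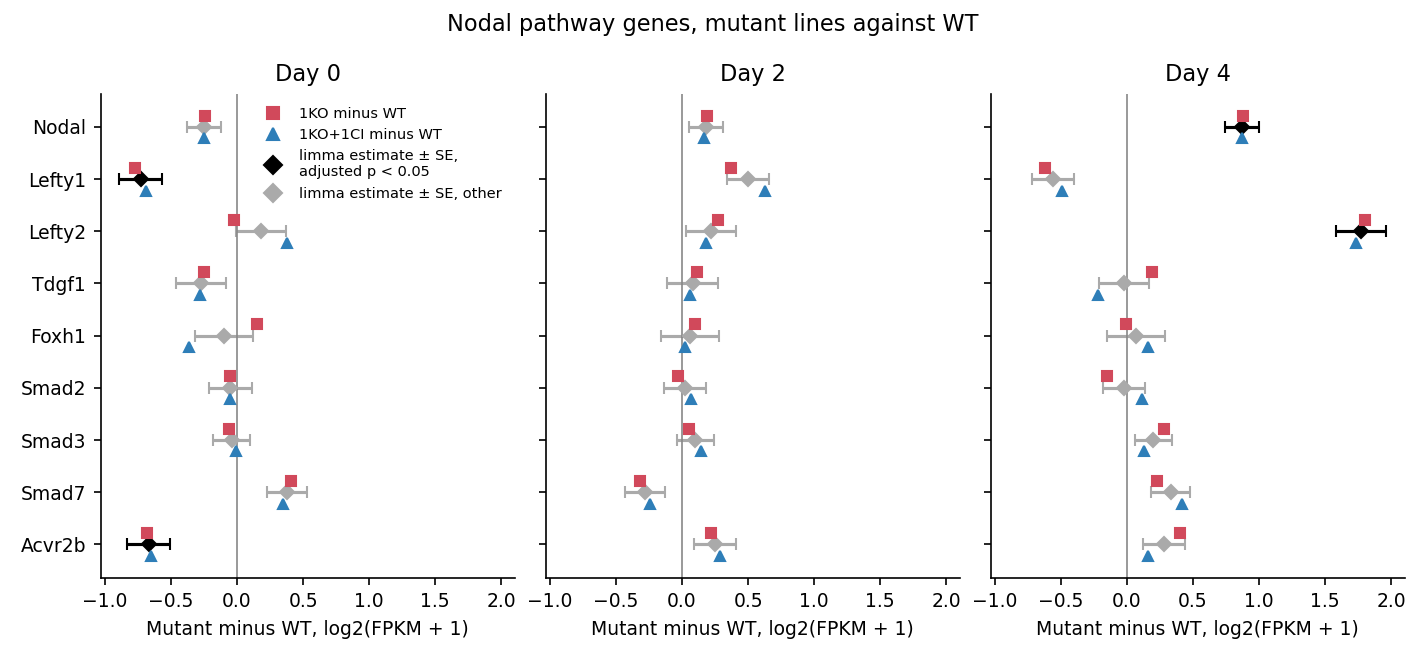
Difference of the mutant lines from WT in log2(FPKM + 1) for the 9 genes at days 0, 2 and 4: squares, 1KO minus WT; triangles, 1KO+1CI minus WT; diamonds, the limma estimate with its SE, black where the adjusted p is under 0.05 and grey otherwise. Lefty1 and Acvr2b at day 0 lie to the left of 0 at -0.73 and -0.67, and Nodal and Lefty2 at day 4 to the right at 0.87 and 1.77.

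Whether the change over time differed between genotypes was tested in the same fit, with contrasts chosen after the data had been seen. From day 0 to day 4 the change was larger in the mutant lines for Lefty2, by 1.59 ± 0.27 (limma adjusted p = 0.0434), and for Nodal, by 1.12 ± 0.19 (limma adjusted p = 0.0426), where 1.66% of all genes were called. Both calls were lost with a pseudocount of 0.1 (limma adjusted p = 0.0937 and 0.0844). Acvr2b was at 0.95 ± 0.22 (limma adjusted p = 0.0879) and Lefty1 at 0.17 ± 0.23. From day 2 to day 4, both after the removal of feeders, Lefty2 was at 1.54 ± 0.27 (limma adjusted p = 0.0948) and Nodal at 0.69 ± 0.19 (limma adjusted p = 0.197). No member passed there, and 0.00753% of all genes (1 gene) were called. An unadjusted limma p under 0.05 was reached by 4 members and by 1735 of the 13288 genes. From day 0 to day 2 no member passed either, and 0.0978% of all genes were called. There, 3 members and 1952 of the 13288 genes had an unadjusted limma p under 0.05.

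The other genes of the pathway were read from lists, with calls from the limma fits, in which 8.06% (day 0), 2.72% (day 2) and 2.54% (day 4) of all genes were called between genotypes. Of 6 other ligands and processing genes, none passed the limma test between genotypes at day 4, and at day 0 only Pcsk6, a protease that cleaves the Nodal precursor, was higher in the mutant lines (1.01 ± 0.17; limma adjusted p = 0.0261). Inhba, which encodes an activin subunit, differed by more than 1 between single libraries without passing that test: its differences from WT were 1.32 (1KO) and 1.92 (1KO+1CI) at day 0, and 0.27 and 1.33 at day 4. Its day 0 levels of 3.12 (WT), 9.28 (1KO) and 14.6 FPKM (1KO+1CI) stood in the same order as the summed fibroblast markers. The feeders' part in the day 0 values of Inhba, Inhbb and Pcsk6 was not tested. Inhba and Inhbb, the gene of another activin subunit, fell from day 0 to day 4 over the lines, where 25.2% of all genes were called, by 1.76 ± 0.20 (limma adjusted p = 0.00131) and 2.10 ± 0.26 (limma adjusted p = 0.00203), and Pcsk6 did so by 0.79 ± 0.21 (limma adjusted p = 0.0327). Furin, another such protease, had 14.4, 5.96 and 7.46 FPKM in the WT libraries of days 0, 2 and 4. It had 9.22, 6.12 and 12.4 FPKM in those of 1KO, and 8.27, 4.95 and 12.3 FPKM in those of 1KO+1CI. It was the 1 gene of this list whose change from day 0 to day 4 differed between genotypes (1.32 ± 0.23; limma adjusted p = 0.0454), where 1.66% of all genes were called. Gdf3, a ligand that also uses Tdgf1, lay between 29.4 and 52.6 FPKM. Of 4 other receptor and co-receptor genes 3 were in the expression table. Only Acvr1b and Acvr2a passed the filter, and neither was called in any of these comparisons.

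Inside the cell, 12 of 12 listed genes were tested. At day 4, 1 of them was higher in the mutant lines and none was lower: Pmepa1, which encodes a membrane protein that holds back SMAD activation, had 4.47 (WT), 11.8 (1KO) and 14.8 FPKM (1KO+1CI), a difference of the mutant lines from WT past the threshold (1.38 ± 0.19; limma adjusted p = 0.0191). It was also the 1 gene of this list called at day 0 (0.81 ± 0.19; limma adjusted p = 0.0452). Smad4, the common partner of SMAD2 and SMAD3, lay between 12.2 and 19.9 FPKM. Skil, which encodes a repressor of SMAD targets, had the lowest difference from WT of this list at day 4, at -0.41 in 1KO and -0.63 in 1KO+1CI. Among 4 tested extracellular inhibitors, Fst, which encodes the activin antagonist follistatin, was higher in the mutant lines at day 0 (1.81 ± 0.21; limma adjusted p = 0.00990) and at day 4 (1.81 ± 0.21; limma adjusted p = 0.0109), with day 4 levels of 14.1 (WT), 51.1 (1KO) and 53.0 FPKM (1KO+1CI). The feeders' part in the day 0 values of Pmepa1 and Fst was not tested.

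Of 14 listed target genes of Nodal signalling, 11 were in the expression table, and all 11 passed the filter. At day 4, 7 of the 11 were higher in the mutant lines, with none lower, against 2.54% of all genes called. T, the brachyury gene of the primitive streak, had 2.07 (WT), 29.2 (1KO) and 27.2 FPKM (1KO+1CI) at day 4 (3.25 ± 0.16; limma adjusted p = 0.000407). Fgf8, a streak-expressed growth factor, had 8.51, 84.5 and 63.0 FPKM in the same order (2.96 ± 0.27; limma adjusted p = 0.00486). Mixl1, Eomes, Evx1 and Foxa2 were also among the 7, with differences from 2.26 for Mixl1 down to 1.19 for Foxa2. Of the 11, Mixl1, Lhx1, Foxa2, Sox17 and Evx1 reached 1 FPKM only in mutant libraries of day 4. They were tested only because they were high there, so neither the count of 7 nor the median below is independent of the filter. At day 0, 3 of the 11 targets were lower in the mutant lines, Fgf8 and Fgf5 among them, and none was higher, against 8.06% of all genes called, and at day 2 only Fgf5 was called, as higher, against 2.72%. Of the 11 targets, 5 are also among the 6 tested streak markers, 2 are primitive endoderm markers and 1 is an epiblast marker, so that the list is not a measure of Nodal signalling alone. The median over the targets at day 4 was 1.19, against 0.00 over all genes. In the related BMP and TGF-beta branch, 1 of 17 tested genes was higher at day 4, Tgfbr3, and none was lower, against 2.54% of all genes called, with a median of 0.35.

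**Figure D4:**
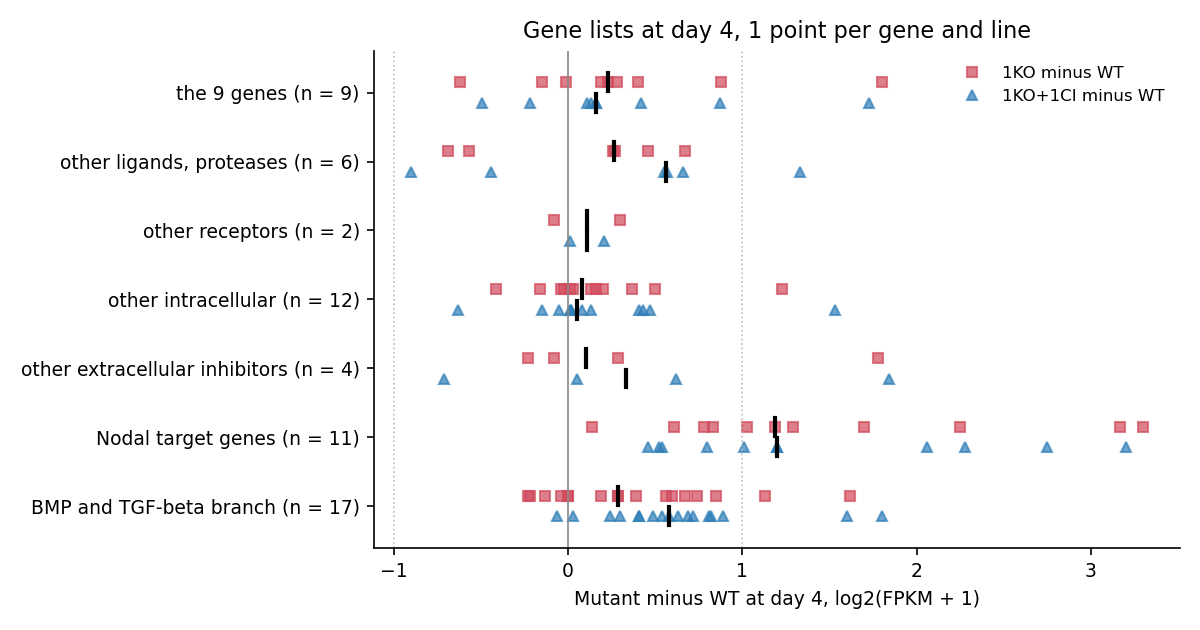
Difference from WT at day 4 in log2(FPKM + 1) for every tested gene of 7 lists, with 1KO as squares, 1KO+1CI as triangles and medians as black bars; the dotted lines are at -1 and 1. The 11 targets all lie above 0 in both mutant lines, with medians of 1.19 and 1.20, while the medians of the 9 members are 0.23 and 0.16. Some of the 11 targets passed the filter only through mutant libraries of day 4.

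Marker lists of cell types were read beside the members at day 4, where 2.54% of all genes were called between genotypes. The summed level of the 6 streak markers found was 23.3 (WT), 161 (1KO) and 152 FPKM (1KO+1CI) at day 4. Of this sum Fgf8 alone made up 8.51, 84.5 and 63.0 FPKM. In the libraries of days 0 and 2 the sum was 4.65 to 13.0 FPKM. All 6 passed as higher in the mutant lines at day 4, but Mixl1 and Evx1 reached the filter of 1 FPKM only in mutant libraries of that day. For 14 primitive endoderm markers the sum at day 4 was 180, 222 and 382 FPKM in WT, 1KO and 1KO+1CI, of which Sparc alone made up 109, 124 and 211 FPKM. Of 13 tested, 1 passed as higher, Foxa2, which is also a listed target. The fit takes its error from the difference between the mutant lines, so a gene raised mainly in 1KO+1CI can hardly pass. Between single libraries, 7 of the 13 were higher by at least 1 in 1KO+1CI than in WT (median 1.01; 4.58% of all genes called). In 1KO 3 were (median 0.33, with 2.56% of all genes called). Foxa2, Sox17 and Cubn, which are among the 7, reached the filter of 1 FPKM only in mutant libraries. For 8 epiblast markers the sum was 743, 670 and 526 FPKM, of which Dnmt3b alone made up 390, 328 and 226 FPKM. Of the 8, 1 passed as higher, Wnt3, which is also a streak marker. For 11 naive pluripotency markers the sum was 1205, 1014 and 910 FPKM, with 3 passing as higher and 1 as lower. Pou5f1 alone made up 1008, 745 and 650 FPKM of this sum, which therefore says little about the other markers. Of the 11, 7 lay above WT and 4 below it in each mutant line at day 4. The part of these cell types in the levels of Nodal and Lefty2 was not tested.

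The genes most like a member over the 9 libraries, by Pearson correlation of log2(FPKM + 1) among the 9729 genes with at least 5 FPKM in some library, are given as a description. For Nodal they were Efr3a (r = 0.981), Mixl1 (r = 0.979) and Rgmb (r = 0.977), the last a co-receptor of BMP ligands. Rgmb had 5.07 (WT), 9.30 (1KO) and 10.8 FPKM (1KO+1CI) at day 4, against 3.51 to 4.53 FPKM in the other 6 libraries. For Lefty2 they were Jak1 (r = 0.981), a kinase of cytokine receptors, Gjc1 (r = 0.975), a connexin gene, and Ndst1 (r = 0.954), and for Lefty1 they were Tmem222 (r = 0.965), Txnrd1 (r = 0.960) and Tmem265 (r = 0.954). For Tdgf1 they were Tnfaip8 (r = 0.977), Anp32a (r = 0.976) and Depdc1a (r = 0.975). The 9 libraries share lines and days and are not independent of each other.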

How the data were processed

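RNA-seq of 9 libraries was used, 1 for each of WT, 1KO and 1KO+1CI at days 0, 2 and 4. The authors used Trim Galore for trimming, HISAT2 for mapping to mm10, SAMtools for conversion and HOMER (analyzeRepeats.pl) for counting, and deposited FPKM values per gene. Not given in the sources used here were tool versions, annotation release, strand setting and the handling of multiply aligned reads. A second table, of repeat copies, was not used here. Values of 1 listed target gene and 1 stretch of sequence are not reported here. What the number in the column name of 1KO+1CI stands for is not stated.

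Of 15095 entries, 21 without a gene symbol (1 named 0 and 20 dates) were left out. Genes with at least 1 FPKM in some library were tested with limma 3.58.1 (R 4.3.3) on log2(FPKM + 1), in the 2 fits described in the report, with a threshold of 0.05 on the adjusted p; a fold on this scale is understated for low genes. The fits were tested on simulated data with independent noise of the same size in every library. That did not test whether WT libraries vary as the related mutant lines do. Depth was recovered from low values of genes: in 89.0% of 1944 genes searched the values were whole multiples of a step in all 9 libraries, against 0.41% after the values had been moved at random. The absolute depth was the most frequent value over 1087 of these genes with 1 annotated transcript, and 534 of them lay at it. Gene positions and transcript lengths were from GENCODE M21 (GRCm38, the build of mm10), and promoter windows from RefSeq (GRCm38.p6), matched by symbol for 4 of the 9 genes. Nothing says that libraries came from separate cultures of a line, so p-values measure the spread between these libraries. The alternatives were pseudocounts of 0.1 and 0.01, rescaling to a common sum, median-ratio scaling, no filter, a mean-variance trend and leaving out each line.

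The members and gene lists were chosen with earlier results of these data known. Genes were named by a rule: the 9 members in every library, the defining, highest and lowest genes of the other lists, the 3 genes most like Nodal, Lefty1, Lefty2 and Tdgf1, and Dnmt1. Cubn, Dnmt3b, Furin, Gdf3, Lhx1, Pcsk6, Pou5f1, Smad4, Sox17, Sparc, Tgfbr3 and the called targets were named after their values had been seen.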

Additional observations from a re-analysis of the deposited data

Results flagged for a closer look

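For 2 members the change from day 0 to day 4 differed between the mutant lines and WT by a test of that difference (limma on log2(FPKM + 1), contrast chosen after the data had been seen). For Lefty2 the difference was 1.59 ± 0.27 (limma adjusted p = 0.0434): WT changed by -2.00, 1KO by -0.18 and 1KO+1CI by -0.64. For Nodal it was 1.12 ± 0.19 (limma adjusted p = 0.0426): WT changed by 0.10 and both mutant lines by 1.22. The adjusted p lay between 0.0222 and 0.0937 for Lefty2 and between 0.0199 and 0.0844 for Nodal under the 5 other settings. The WT values rest on 1 library a day. The fibroblast markers at day 0 differed between the lines, and with day 2 in place of day 0 neither gene passed (limma adjusted p = 0.0948 and 0.197). The part of the feeders was not tested. No group held enough libraries for a check of single libraries that stand apart.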

How the results depend on the processing

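The counts of called members within a day (2) and within a line (15) kept within 1.5 times under the other pseudocounts, scalings and no filter. With a pseudocount of 0.1 the members called between the mutant lines and WT were 0 at day 0 (2 in the report) and 1 at day 4 (2 in the report), and 0 for the change from day 0 to day 4 (2 in the report). Calls over all 13288 genes also fell with this pseudocount. They went from 1071 to 401 at day 0, from 338 to 165 at day 4, and from 220 to 58 for the change. With median-ratio scaling 1 member was called at day 0, where 1011 of all genes were. Leaving out a line gave between 0 and 5 members at day 2 against day 0, where 26 to 2609 of the 13288 genes were called. It gave between 0 and 5 at day 4 against day 0 (443 to 4502 of all genes). At day 4 against day 2 it gave between 0 and 7 (0 to 3666 of all genes). Fits without a line have fewer samples. Values that did not pass changed sign in 6 cases: Acvr2b at day 2 against day 0, which ranged from -0.42 to 0.04 when 1 line was left out; with a common sum, Tdgf1 to 0.07 and Smad2 to 0.06 in the mutant lines at day 4, Smad7 to 0.03 for the change from day 0 to day 4 and Smad2 to 0.04 for the change from day 2 to day 4; and with median-ratio scaling Lefty2 to -0.01 for the change from day 0 to day 2. The cause was not tested. The fits over days have line as a term and so compare days within lines, no replicate numbers pair libraries beyond that, and no line could be left out of the fit of mutant lines against WT, which then has no residual degrees of freedom. Each condition is 1 library, so a difference between lines on a day cannot be told apart from a difference between cultures. The read numbers (152 to 18076 a member) rest on the shortest annotated transcript, and for Smad2, Smad7 and Acvr2b, which have several, longer ones would give more reads.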
